A study of Drosophila melanogaster with 50 samples.

Results

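The genes described here are those of the histone lysine demethylases of *Drosophila melanogaster* that the study bears on, *Kdm3*, *Kdm2*, *Kdm4A*, *Kdm4B*, *lid*, *Utx* and *Su(var)3-3*, together with *CG8176*, which overlaps *Kdm3*. They were chosen by name and found by their FlyBase identifiers, which gave 8 of the 17875 genes of the ovary tables and 8 of the 17612 genes of the embryo tables. The study asked what happens in ovaries, and in embryos laid by the same kind of female, when *Kdm3* is depleted in the germline (germline knockdown, GLKD). The Kdm3 GLKD females carried a short hairpin RNA against *Kdm3* driven by a *nanos*-GAL4 transgene, so the somatic follicle cells of the ovary were not targeted, and their control sisters were wild type for Kdm3. Ovary RNA and ovary small RNA were sequenced in 3 Kdm3 GLKD and 3 control libraries. Embryos of Kdm3 GLKD mothers were set against embryos of *w* GLKD mothers, which carried a hairpin against an eye colour gene, with 2 libraries each for RNA at 3 to 5 hours and for small RNA at 0 to 2 hours and at 3 to 5 hours after laying. Chromatin immunoprecipitation followed by sequencing (ChIP-seq) of ovaries covered H3K9me2 and H3K9me3 (3 libraries per genotype) and the piRNA cluster protein Rhino (2 libraries per genotype). All ovary samples were whole organs with germinal and somatic cells.

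The deposited gene tables give 1 level per gene, the base mean, the authors' normalized counts averaged over all libraries of a table, both genotypes together. The columns that compare the genotypes hold the authors' own fold changes and tests and were not used. How far *Kdm3* RNA fell in Kdm3 GLKD, whether small RNAs on *Kdm3* changed and whether the other demethylase genes changed their RNA level are therefore not analysed here. What follows gives the level of each gene pooled over both genotypes, which has no spread between libraries, and the called peaks over each gene in each genotype, for which 1 list per mark and genotype leaves no replicate error and no test between genotypes.

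Histone lysine demethylases remove methyl groups from histone tails. Most of them act through a Jumonji C (JmjC) domain, which uses iron and 2-oxoglutarate, while *Su(var)3-3*, the fly homolog of LSD1, is a flavin-dependent oxidase. Kdm3 acts on dimethylated lysine 9 of histone H3 (H3K9me2), a mark of silent chromatin. Kdm4A and Kdm4B act on di- and trimethylated lysines 9 and 36 of H3, Kdm2 on lysines 4 and 36, Lid, a member of the KDM5 family, on trimethylated lysine 4, and Utx on lysine 27. Su(var)3-3 acts on mono- and dimethylated lysine 4. *CG8176* encodes an F-BAR domain protein and is no demethylase.

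*Kdm3* (FBgn0037703) is transcribed from the plus strand of arm 3R, chr3R:9516007-9520938 (dm6), and the whole of it lies within *CG8176* (FBgn0037702), chr3R:9516007-9527237, on the same strand. Both genes begin at the same base. Their shared exon sequence amounts to 508 bp, in a first exon of 161 bp and an alternative first exon of which 347 bp are common to both. The coding sequence of *Kdm3* lies within a single exon of 2678 bp, chr3R:9518261-9520938, which falls inside an intron of *CG8176*. A transcript from this start therefore becomes *Kdm3* or *CG8176* according to the 3′ splice site that is used. The sites are shown because they separate the 2 genes in transcripts from the common start. The GT that opens the intron or the AG that closes it is in capitals, from RefSeq release 6, plus strand, 5′ to 3′. The alternative first exon ends at base 9517457 in *Kdm3* and 9517500 in *CG8176*, and its donors are not shown. The shared donor is at chr3R:9516160-9516207, and the acceptors are at chr3R:9518211-9518274 and chr3R:9521003-9521066.
Shared donor: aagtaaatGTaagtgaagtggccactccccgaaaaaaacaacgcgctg
*Kdm3* acceptor: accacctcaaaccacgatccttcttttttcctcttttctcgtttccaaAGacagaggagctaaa
*CG8176* acceptor: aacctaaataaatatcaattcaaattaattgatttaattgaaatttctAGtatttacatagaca

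The *Kdm3* acceptor follows a run of pyrimidines and the *CG8176* acceptor a stretch of A and T. The 98 bases before the common start that no annotated exon overlaps, chr3R:9515909-9516006 (plus strand), hold the 6-base core ATCGAT of the DNA replication-related element (DRE), a promoter element of many housekeeping genes, which is in capitals below.
*Kdm3* and *CG8176* promoter: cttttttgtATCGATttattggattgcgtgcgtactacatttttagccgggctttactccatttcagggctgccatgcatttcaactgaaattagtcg
Within 250 bases before the gene start, on either strand, ATCGAT was found in *Kdm3*, *CG8176* (the same window), *Utx* and *Su(var)3-3*, 4 of the 8 genes, and in 20.8% of 13945 protein-coding promoters. The full element TATCGATA was found in *Su(var)3-3* alone among the 8 genes and in 1115 of the promoters. A match describes letters and does not show that a factor binds there.

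The other genes stand apart from this locus. *Kdm2* (FBgn0037659) lies at chr3R:9052495-9063245 and overlaps the gene *beag*. *Kdm4A* (FBgn0033233) at chr2R:7922775-7924988 is the shortest of the 8 and *Kdm4B* (FBgn0053182) at chr2R:13176553-13198337, which overlaps *CG17724* and *seq*, the longest. *lid* (FBgn0031759, named Kdm5 in the current annotation) lies at chr2L:5989400-5999501, *Utx* (FBgn0260749) at chr2L:10272325-10278811 and *Su(var)3-3* (FBgn0260397) at chr3L:20226381-20230250. *Kdm4A*, *lid*, *Utx* and *Su(var)3-3* overlap no other annotated gene. Reads in an overlap may be shared between genes, so the levels of *Kdm3*, *CG8176*, *Kdm2* and *Kdm4B* are less certain than those of the other four.

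In ovary RNA, *Kdm3* had the lowest level of the 8 genes. Its base mean was 302.2, or 94.9 per kb of exon, below the median of 210.1 per kb over 12913 protein-coding genes with a value above 0. The other 7 genes lay above that median, and per kb of exon they were 4.95 to 18.5 times as high as *Kdm3*. This *Kdm3* level averages libraries in which the gene was targeted with libraries in which it was not, and it also averages germline with follicle cells. A lower level per cell cannot be told apart from expression in fewer cells. *Kdm3* also lies wholly within *CG8176*, so its place below the other genes depends on how reads in the overlap were assigned.

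*lid*, whose name means little imaginal discs and whose product removes H3K4 trimethylation, had the highest ovary level per kb of exon, at 1756. *CG8176* was next at 1717. *Kdm4A* stood at 1413 per kb, *Su(var)3-3* at 1121 and *Utx* at 1050. *Kdm2* followed at 844.6 and *Kdm4B*, the other H3K9 and H3K36 demethylase, at 469.6 per kb. Neighbours in this order differed by as little as 1.02 times, for *lid* over *CG8176*, and 1.07 times, for *Su(var)3-3* over *Utx*, and without a spread over libraries such pairs cannot be ranked. The gap between *Kdm4B* and *Kdm3*, 4.95 times, was the widest in the order per kb of exon. Both the top of the order and this gap depend on the length used. Per kb of the whole gene span *Kdm4A* was highest at 1291, with *lid* at 1244 and *CG8176* at 782.1. By that length the widest gap lay between *Kdm2* at 431.2 and *Kdm4B* at 145.3. *Kdm3* was again lowest, at 61.3.

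*Kdm3* and *CG8176* begin at the same base, and the ovary base mean of *CG8176*, 8783, was 29.1 times that of *Kdm3*. The RNA-seq reads were aligned to a collection of gene sequences in which the *CG8176* sequence contains that of *Kdm3*. How a read that fits both was assigned is not given in the sources used here. The ratio of these 2 genes, the level of *Kdm3* and its gap below *Kdm4B* are therefore uncertain.

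**Figure D1:**
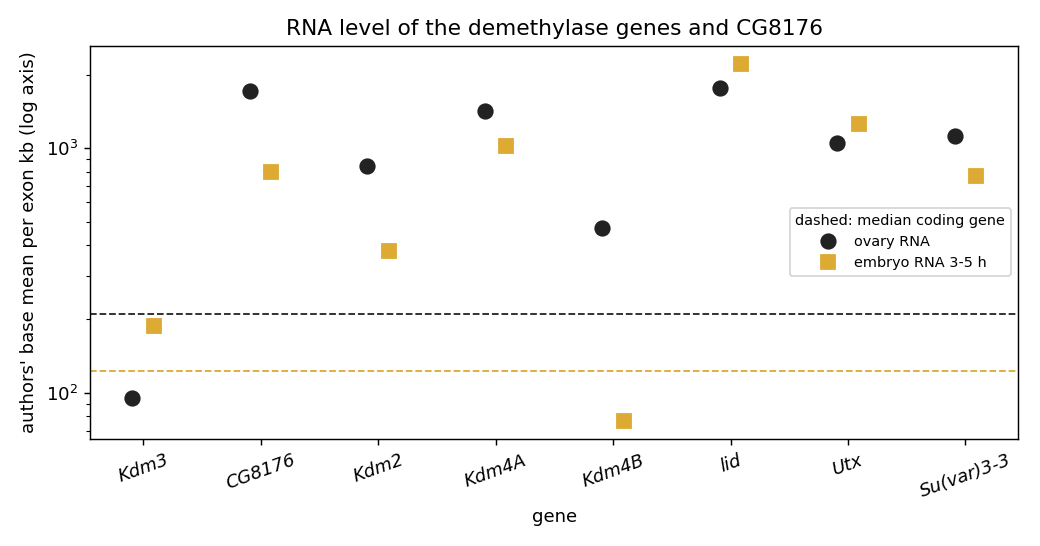
Authors' base mean per kb of exon (log axis) of each of the 8 genes in ovary RNA (circles) and in RNA of embryos at 3 to 5 hours (squares), 1 pooled value per gene and table with no error. Dashed lines mark the median protein-coding gene of each table, at 210.1 in ovary and 123.1 in embryo, and *Kdm3* is the only one of the 8 below the line in ovary.

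In embryo RNA at 3 to 5 hours the order of the 8 genes changed, with *Utx* up from the fifth place to the second, *CG8176* down from the second to the fourth, and *Kdm3* and *Kdm4B* exchanged at the lower end. *lid* was again highest, at 2214 per kb of exon, followed by *Utx* at 1250 and *Kdm4A* at 1022. *CG8176* at 800.8 and *Su(var)3-3* at 767.7 per kb were 1.04 times apart. *Kdm2* stood at 379.3 and *Kdm3* at 187.0, which was above the median of 123.1 per kb over 12818 protein-coding genes. *Kdm4B* was lowest, at 76.8 per kb, and was the one gene of the 8 below that median. The changed places of *CG8176*, *Kdm3* and *Kdm4B* concern genes that overlap others, whose levels are less certain. These places are per kb of exon. Per kb of the whole gene span in embryo, *Kdm4A* at 933.3 lay above *Utx* at 851.3, and *CG8176* at 364.8 lay below *Su(var)3-3* at 730.2.

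The ovary and embryo tables were normalized separately, so levels across them were compared after scaling each table to a sum of 1000000. On this scale *Kdm3* went from 8.79 in ovary to 31.2 in embryo, 3.55 times as high, and had the largest embryo to ovary ratio of the 8. *lid* was 2.27 times and *Utx* 2.14 times as high in embryo, *Kdm4A* 1.30 and *Su(var)3-3* 1.23 times. *Kdm4B* had the smallest ratio, 0.295. *CG8176*, which shares its start with *Kdm3*, had a ratio of 0.840 and *Kdm2* of 0.809. Over the 9139 genes whose base mean reached 10 in each of these tables the ratio had a median of 1.08, with quartiles of 0.653 and 1.92. *Kdm3*, *lid* and *Utx* thus lay above the upper quartile and *Kdm4B* below the lower. The ovary lists held 17875 genes and the embryo lists 17612. Whether reads were counted alike in both is not given in the sources used here. *Kdm3* and *Kdm4B*, with the largest and the smallest ratio, both overlap other genes, so their ratios are less certain than those of *lid* and *Utx*. The part that counting has in these ratios was not tested. Both pools include Kdm3 GLKD libraries, 3 of 6 in ovary and 2 of 4 in embryo, and the part that the hairpin has in the *Kdm3* ratio was not tested.

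The tissues were checked against marker genes. The germline markers *vas*, *nos*, *osk*, *bam* and *aub* had a median of 2312 per kb in ovary, and the follicle cell markers *tj*, *Fas3*, *Yp1*, *Vml* and *psd* a median of 1465 per kb. The embryonic patterning genes *eve*, *ftz*, *sna*, *twi* and *en* had a median of 0.413 per kb in ovary, where *sna* was listed at 0 and *twi* at 600.2, and of 919.2 per kb in embryo. The follicle cell markers had a median of 4.32 per kb in embryo, where *Fas3* stood apart at 346.7. The muscle and gut markers *Mhc*, *Act88F*, *Jon99Ci* and *Amy-p* had a median of 30.5 per kb in ovary, from 4.13 for *Jon99Ci* to 260.5 for *Mhc*. The base means summed to 34376209 in ovary RNA and 19078513 in embryo RNA, but to 4688955, 142146 and 109515 in small RNA of ovary, embryo at 0 to 2 hours and embryo at 3 to 5 hours, which makes the embryo small RNA values the least precise.

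Small RNAs were listed on all 8 genes in ovary. PIWI-interacting RNAs (piRNAs) guide silencing in the germline, and a gene with abundant piRNAs is itself a possible target or source. *Kdm3* had an ovary small RNA base mean of 16.2, or 5.09 per kb of exon, below the median of 6.54 per kb over 12450 protein-coding genes with a value above 0. It was the lowest of the 8 per kb of exon, although per kb of the whole gene span *Kdm4B* was lower, at 2.38 against 3.29. The other 7 genes were above that median and ran from 7.69 per kb of exon (*Kdm4B*) to 24.8 (*lid*), with *CG8176* at 16.7, *Kdm4A* at 12.9, *Kdm2* at 11.1, *Utx* at 8.55 and *Su(var)3-3* at 8.35. For 6 of the 8 genes the small RNA base mean per 1000 of RNA base mean fell between 7.45 (*Su(var)3-3*) and 14.1 (*lid*), with *Kdm4B* at 16.4 and *Kdm3* at 53.6. The median over 10578 genes was 18.8 and the upper quartile 63.0. *Kdm3* was thus the only one of the 8 above the median by this measure, and both of its levels were below those of the median gene per kb. Small RNA reads were kept when they matched once, and the *CG8176* sequence contains that of *Kdm3*. How reads that fit both were handled is not given, so the small RNA level of *Kdm3* and this measure for it are uncertain. The RNA base mean of *Kdm3* in this measure also averages libraries in which the gene was targeted with libraries in which it was not. The part that the hairpin has in the measure was not tested. The small RNA libraries were not separated by strand in the tables, so sense and antisense reads on *Kdm3* cannot be told apart. The tables were made from reads of piRNA length, which leaves out the shorter small interfering RNAs cut from a hairpin.

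**Figure D2:**
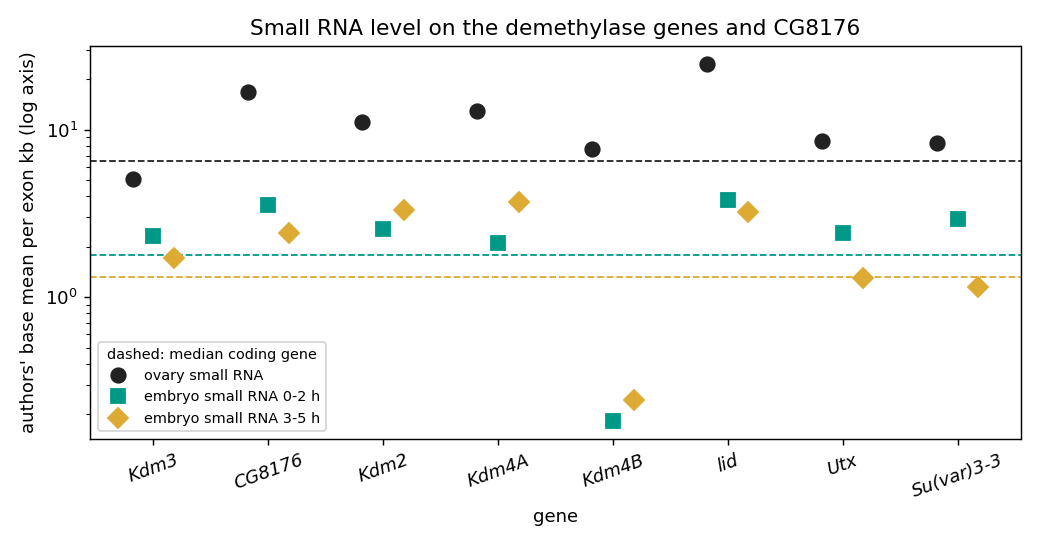
Authors' small RNA base mean per kb of exon (log axis) of each of the 8 genes in ovary (circles), embryos at 0 to 2 hours (squares) and embryos at 3 to 5 hours (diamonds), 1 pooled value per gene and table with no error. Dashed lines mark the median protein-coding gene with a value above 0 in each table, and *Kdm4B* lies far below its line in both embryo tables.

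In embryos the small RNA base means were smaller, in tables with far smaller sums. Scaled to a sum of 1000000, *Kdm3* stood at 3.46 in ovary, 52.2 in embryos at 0 to 2 hours and 50.2 at 3 to 5 hours, and by level per kb of exon it ranked above 44.0%, 59.7% and 58.8% of the protein-coding genes with a value above 0. A higher scaled value at 0 to 2 hours than in ovary was not particular to *Kdm3*. It was found in all of the 8 genes but *Kdm4B*, which stood at 11.1 in ovary and 8.67 at 0 to 2 hours. *lid* stood at 37.8 and 191.6, and *Utx* at 8.06 and 75.5. Whether small RNA reads were counted alike in ovary and embryo is not given, and *Kdm3* and *Kdm4B* overlap other genes. Unscaled, at 0 to 2 hours the base mean of *Kdm3* was 7.42 and at 3 to 5 hours 5.50, which were 2.33 and 1.73 per kb of exon. *lid* was highest at 0 to 2 hours with 3.80 per kb and *Kdm4A* at 3 to 5 hours with 3.68. *Kdm4B* was lowest at both times, at 0.183 and 0.245 per kb, with base means of 1.23 and 1.65. At 0 to 2 hours the other 7 genes lay within 2.11 and 3.80 per kb, above the median of 1.78 over 8436 protein-coding genes with a value above 0. At 3 to 5 hours *Utx* at 1.31 and *Su(var)3-3* at 1.15 per kb were below the median of 1.32. With base means of 27.2 or less and no value per library, no order among these genes can be drawn from the embryo tables.

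H3K9me2 is the mark that Kdm3 removes. In control ovaries a called H3K9me2 peak overlapped 1 of the 8 genes, *Kdm4B*, by at least 1 bp of its span. In Kdm3 GLKD ovaries a peak overlapped 6 of the 8, *Kdm3*, *CG8176*, *Kdm2*, *Kdm4B*, *lid* and *Su(var)3-3*, and none overlapped *Kdm4A* or *Utx*. This contrast of 1 and 6 rests on weak peaks and on the gene borders: it was 0 and 1 for peaks of at least 2-fold enrichment, and 5 and 6 with 2 kb added on each side of the genes. Over all 23973 annotated genes the share with an H3K9me2 peak was 28.5% in control and 43.9% in Kdm3 GLKD, but the direction turned for peaks of at least 2-fold enrichment, which overlapped 4676 genes in control and 2061 in Kdm3 GLKD. Among 4805 protein-coding genes of the same arms with spans in the range of the 8 genes, 2214 to 21785 bp, it was 15.3% in control and 42.3% in Kdm3 GLKD. A peak in Kdm3 GLKD and none in control was found for 5 of the 8 genes, against 20.3% of all genes and 30.1% of those of like span. *Kdm3* and *CG8176* share 1 peak, so the 5 genes stand for 4 loci, and with so few loci the count does not set these genes apart from others of like span.

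The lists themselves differed in size. The Kdm3 GLKD list held 9564 H3K9me2 peaks with a median fold enrichment over input of 1.56 and a median -log10 q of 3.66, and the control list 3983 peaks with medians of 1.75 and 7.91. The median peak of the larger list was thus the weaker one. The part that depth or input had in this difference was not tested.

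Over *Kdm3*, the Kdm3 GLKD list had a single H3K9me2 peak of 7794 bp, chr3R:9518365-9526158, with a fold enrichment of 1.72 and a -log10 q of 5.57, which ranked above 73.2% of the peaks of that list by fold. It began 104 bases into the coding exon of *Kdm3*, covered 96.1% of that exon and 96.5% of the coding sequence, and ran on through 91.1% of the coding sequence of *CG8176*. No base of the *Kdm3* introns and neither start site was inside it. In control ovaries the nearest H3K9me2 peak to *Kdm3* was 12265 bp downstream. The 120 bases around the 5′ edge of the peak, chr3R:9518305-9518424 (plus strand), are shown because the edge falls in coding sequence, with the bases inside the peak in capitals.
*Kdm3* peak edge: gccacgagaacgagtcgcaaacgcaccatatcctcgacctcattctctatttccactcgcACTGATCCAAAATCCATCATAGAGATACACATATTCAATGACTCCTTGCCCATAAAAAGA

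*Su(var)3-3*, which acts on H3K4 methylation and was found as a suppressor of variegation, had the strongest peak of the 8 genes. The peak in Kdm3 GLKD spanned 2707 bp, chr3L:20227092-20229798, with a fold enrichment of 2.01 and a -log10 q of 9.54, above 94.2% of its list by fold. It covered 69.9% of the span and 89.7% of the coding sequence, and it was the only peak over the 8 genes with a fold of at least 2. Its 5′ edge was also in coding sequence, at chr3L:20227032-20227151 (plus strand), with the bases inside the peak in capitals.
*Su(var)3-3* peak edge: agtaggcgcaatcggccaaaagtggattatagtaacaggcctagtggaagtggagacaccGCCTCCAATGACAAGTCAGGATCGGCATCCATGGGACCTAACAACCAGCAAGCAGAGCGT

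*Kdm4B*, which can itself remove H3K9 methylation, had the most bases in peaks. Peaks of Kdm3 GLKD covered 18296 bp, or 84.0% of its span, in 2 peaks of 15663 and 2633 bp, each with a fold enrichment of 1.85. They covered 98.8% of its coding sequence and 87.0% of its intron sequence. In control 1 peak of 1262 bp, chr2R:13189210-13190471, with a fold enrichment of 1.62, covered 5.79% of the span and no coding base.

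*Kdm2*, which joins Polycomb proteins in the fly dRAF complex, had a peak of 3697 bp in Kdm3 GLKD with a fold enrichment of 1.46 and a -log10 q of 2.47, over 88.4% of the coding sequence and 2.47% of the introns. *lid* had a peak of 3558 bp with a fold enrichment of 1.57 and a -log10 q of 3.64, over 59.7% of the coding sequence and 9.10% of the introns. Both were weaker than the median peak of their list by -log10 q, at 3.66, and both are absent at a -log10 q of at least 5.

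**Figure D3:**
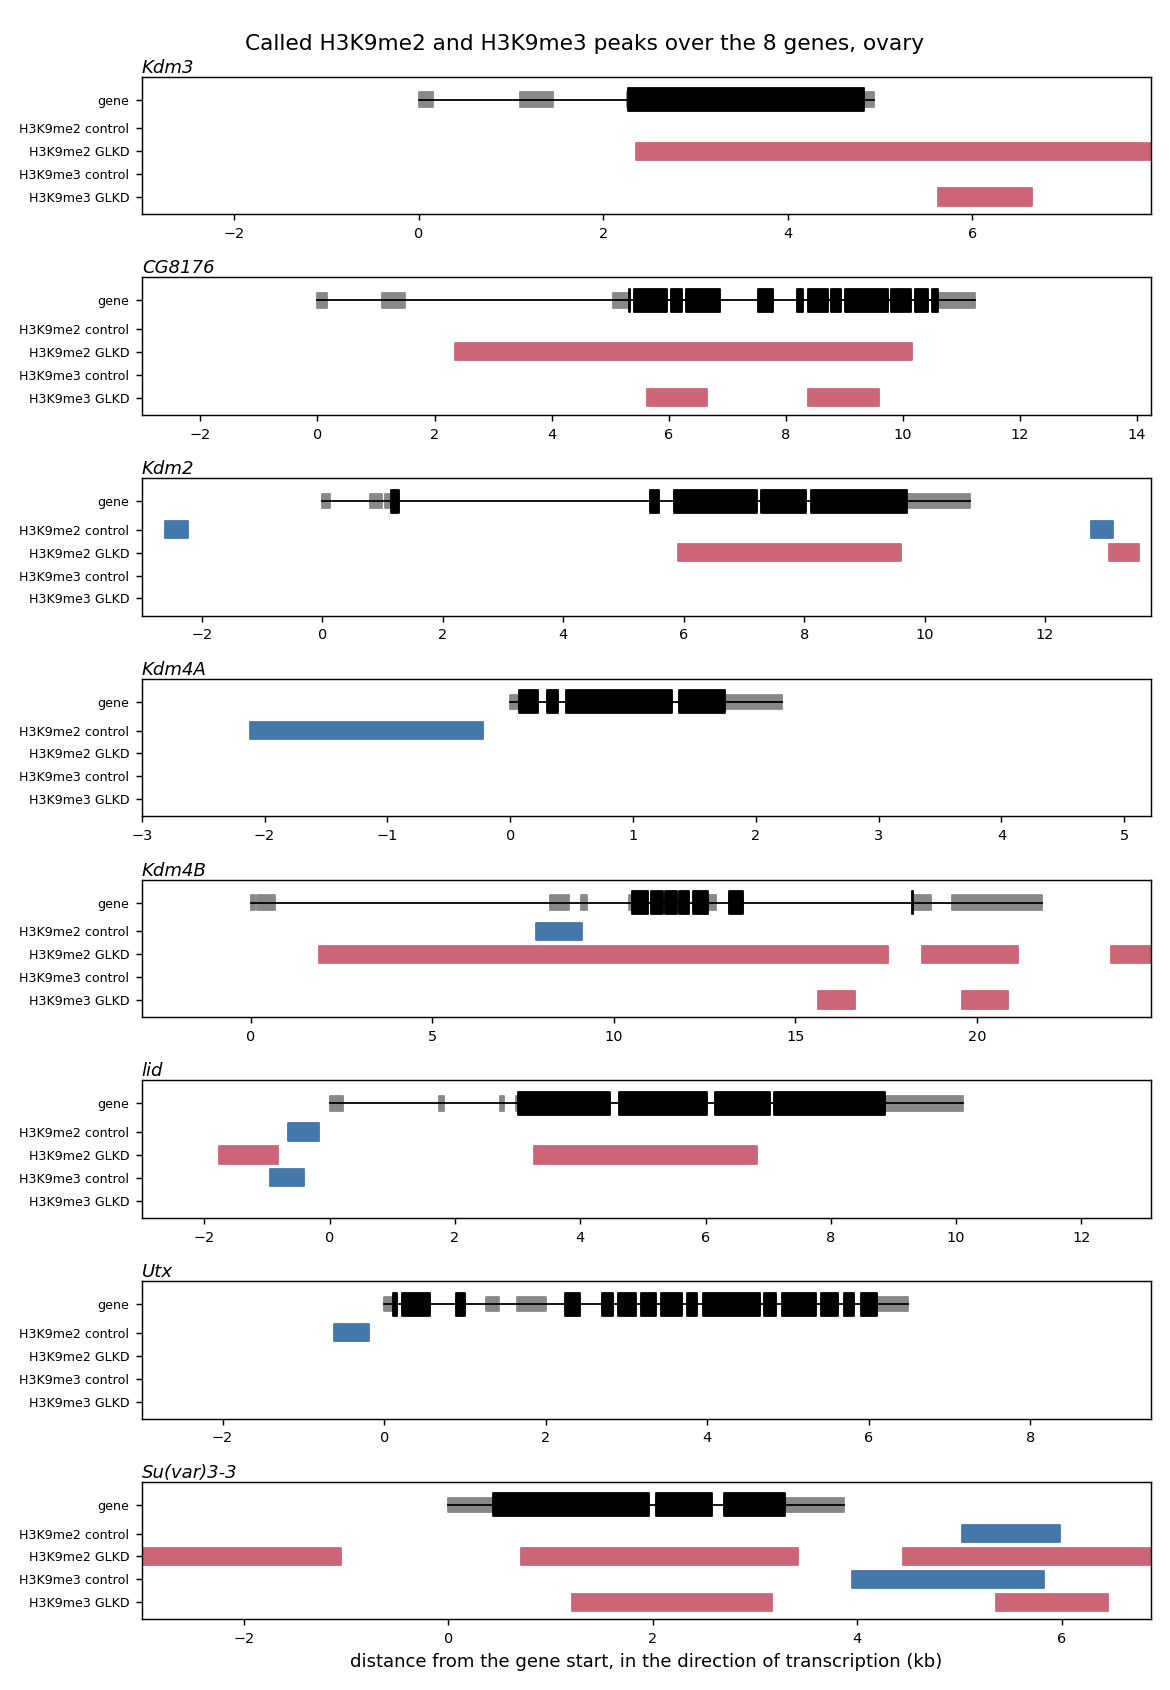
Called H3K9me2 and H3K9me3 peaks in control (blue) and Kdm3 GLKD (red) ovaries over the 8 genes and 3 kb on either side, against distance from the gene start in kb in the direction of transcription. Black boxes are coding exon parts, grey boxes other exon parts and the line the gene span. H3K9me2 peaks of Kdm3 GLKD lie over the bodies of 6 genes, and control peaks lie just before the starts of *Kdm4A*, *lid* and *Utx*.

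The peaks lay away from the first base of the genes. None of the 8 gene starts was in an H3K9me2 or H3K9me3 peak in either genotype, although 2 of the 3 annotated start sites of *Kdm4B*, which lie inside the gene, were in an H3K9me2 peak in both. Among the 2033 genes of like span with an H3K9me2 peak in Kdm3 GLKD, 23.3% had their start inside it. Of all 4805 genes of like span, 5.20% in control and 9.86% in Kdm3 GLKD had their start in an H3K9me2 peak. For H3K9me3 these shares were 2.73% and 2.52%. With 8 genes, the lack of such a start does not set them apart from genes of like span. The coding sequence of the 8 genes, counted once where genes overlap, had 0% of its bases in control H3K9me2 peaks and 67.5% in those of Kdm3 GLKD. Their intron sequence was 2.38% in peaks in control and 52.5% in Kdm3 GLKD, of which *Kdm4B* and *CG8176* held most. In the genes of like span, 3.61% of coding sequence and 7.97% of intron sequence were in control peaks, and 32.6% of coding and 20.0% of intron sequence in Kdm3 GLKD peaks. In both sets the coding share exceeded the intron share in Kdm3 GLKD, and in both the intron share exceeded the coding share in control. For the 8 genes the control shares rest on 1 peak, that of 1262 bp in *Kdm4B*, which is absent at a fold of at least 2. The 6 genes with a peak had 34.4% to 84.0% of their span in it, with a median of 60.8%, and the median over genes of like span with a peak was 52.6%.

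**Figure D4:**
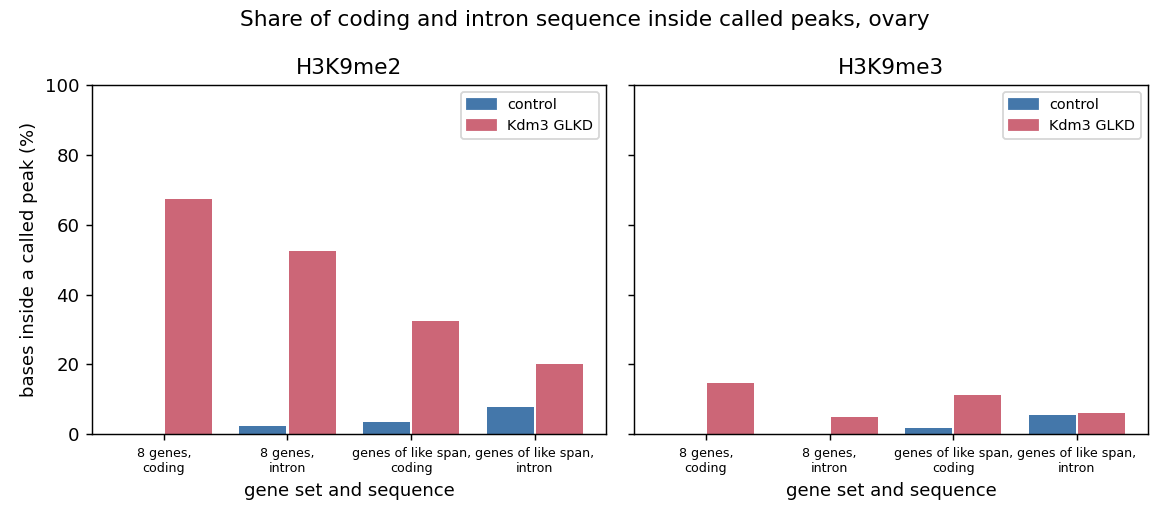
Percentage of coding and of intron bases inside called H3K9me2 (left) and H3K9me3 (right) peaks for the 8 genes together and for 4805 protein-coding genes of like span, in control (blue) and Kdm3 GLKD (red) ovaries. Bars are single values without error, and for H3K9me2 in Kdm3 GLKD they stand at 67.5% of coding and 52.5% of intron sequence for the 8 genes against 32.6% and 20.0% for the genes of like span.

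Control H3K9me2 peaks lay just before the start of 3 of the 8 genes, within 500 bases, a window chosen after these peaks were seen. The peak before *Kdm4A* ended 222 bp from its start and overlapped *MFS12* and an INE-1 transposon insertion, with a width of 1899 bp and a fold enrichment of 1.81. The peak before *lid* was 177 bp away, 493 bp wide and 1.74-fold enriched, and that before *Utx* 189 bp away, 429 bp wide and 1.36-fold enriched. In Kdm3 GLKD none of the 8 genes had an H3K9me2 peak in this window, and the nearest peak to *Kdm4A* was 3464 bp and that to *Utx* 3319 bp away. A Kdm3 GLKD peak before *lid* ended 820 bp from its start, just outside the window. Of the genes of like span, 14.6% had an H3K9me2 peak in this window in control and 13.6% in Kdm3 GLKD. With 8 genes and a window chosen after the peaks were seen, neither H3K9me2 count sets these genes apart from those of like span. For H3K9me3 the window held a peak in control for *lid* alone, and the shares were 7.2% in control and 4.33% in Kdm3 GLKD.

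The control peaks before these 3 starts had a lower G+C content than the Kdm3 GLKD peaks over the genes. The 2 sets also differ in where they lie, before genes or over them. The control peak inside *Kdm4B* is not part of this comparison. G and C made up 35.8% of the control peak before *Kdm4A*, 31.4% of that before *lid* and 25.9% of that before *Utx*. The 120 bases at the centre of the peak before *lid*, chr2L:5999865-5999984, written on the minus strand from which *lid* is transcribed, are shown as the AT-rich example, to be read against the 2 edges above.
*lid* upstream control peak: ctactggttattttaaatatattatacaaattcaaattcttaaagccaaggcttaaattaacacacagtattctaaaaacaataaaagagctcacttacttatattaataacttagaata
Inside the Kdm3 GLKD H3K9me2 peaks the G+C content was 49.5% in *Kdm3*, 47.2% in *CG8176*, 53.9% in *Kdm2*, 47.9% in *Kdm4B*, 52.4% in *lid* and 51.8% in *Su(var)3-3*. In the rest of their spans it was 41.6%, 41.5%, 44.5%, 36.9%, 47.4% and 38.3% in the same order, lower in 6 of 6 genes. *Kdm3* and *CG8176* share a peak and overlap in sequence, so they are not separate cases. *Utx*, with no peak, had the lowest G+C content over its span, 38.0%, and *Kdm4A*, also with none, had 46.5%. In genes of like span with a peak the content was 47.0% inside and 41.0% outside peaks. Over the whole lists it was 43.8% in Kdm3 GLKD H3K9me2 peaks and 40.0% in control peaks. Most of the covered sequence outside *Kdm4B* and *CG8176* was exonic, and coding sequence is richer in G and C than the rest of these genes, at 50.8% in *Kdm3* and 54.1% in *CG8176*. Between genes of like span with and without a Kdm3 GLKD peak the median G+C content of the coding sequence was close, at 53.7% and 54.1%. The part of base composition in the difference between the lists was not tested.

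**Figure D5:**
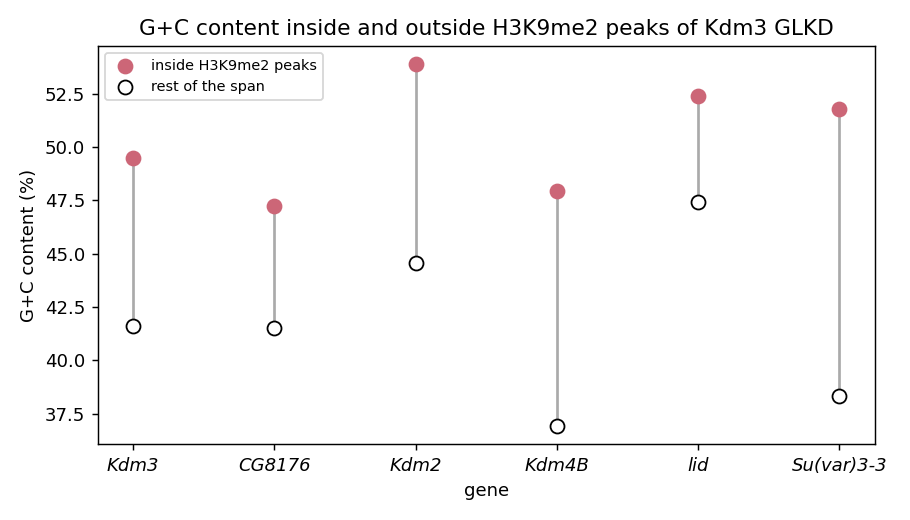
G+C content in percent of the sequence inside H3K9me2 peaks of Kdm3 GLKD ovaries (red) and of the rest of the gene span (open circles) for the 6 genes with such a peak. Each point is 1 value from the reference sequence without error, and the red point is the upper one in all 6 genes. *Kdm3* and *CG8176* share a peak and overlap in sequence.

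H3K9me3 was called over fewer of these genes. No H3K9me3 peak overlapped any of the 8 in control ovaries, where 23% of all genes and 10.4% of those of like span had one. In Kdm3 GLKD 3 genes had one, *CG8176*, *Kdm4B* and *Su(var)3-3*, against 26.7% of all genes and 18.1% of those of like span. A peak in Kdm3 GLKD with none in control was found for 7.54% of all genes and 10.9% of those of like span. The direction over all genes turned at a -log10 q of at least 5, with 4917 genes in control and 4453 in Kdm3 GLKD, and at a fold of at least 2, with 4075 and 3075. All 5 peaks over the 8 genes were weak, with fold enrichments from 1.32 (*Kdm4B*) to 1.54 (*Kdm4B*) and -log10 q from 1.13 to 3.21. The peak over *Su(var)3-3*, of 1959 bp and 1.44-fold enriched, covered 50.6% of the span and lay within its H3K9me2 peak. The 2 peaks over *CG8176*, 1020 and 1219 bp wide, covered 54.4% of its coding sequence and left *Kdm3* free, the nearer one being 702 bp beyond the end of *Kdm3*.

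Rhino, the heterochromatin protein homolog that marks dual-strand piRNA clusters, was called over none of the 8 genes in either genotype. The share of all genes with a Rhino peak was 0.914% in control and 3.65% in Kdm3 GLKD, and that of genes of like span 0.312% and 2.46%. A Rhino peak in Kdm3 GLKD with none in control was found for 2.95% of all genes and 2.19% of those of like span. The nearest Rhino peak to *Kdm3* in Kdm3 GLKD was 232029 bp upstream, and over the 8 genes the nearest ones were 110328 bp (*Su(var)3-3*) to 710701 bp (*lid*) away. With shares this small and only 8 genes, the lack of a Rhino peak does not set these genes apart from others of like span.

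Genes whose products work with or beside the 8 were described from lists. Of 7 further JmjC domain genes (*Jarid2*, *NO66*, *HSPBAP1*, *JMJD4*, *JMJD5*, *JMJD7* and *PSR*), none had an H3K9me2 or H3K9me3 peak in Kdm3 GLKD and *NO66* had an H3K9me2 peak in control over 15 bp, or 0.65% of its span. The shares of all genes were 43.9% for H3K9me2 in Kdm3 GLKD and 28.5% in control, and 26.7% for H3K9me3 in Kdm3 GLKD. Their ovary RNA levels ran from 200.1 per kb of exon (*JMJD5*) to 5069 (*NO66*), so that all 7 were above *Kdm3*. The 7 partners were *CoRest* (with Su(var)3-3), *trr*, *Lpt*, *Ptip* and *Pa1* (with Utx) and *Psc* and *Sce* (with Kdm2). Of these, 4 had an H3K9me2 peak in Kdm3 GLKD, *CoRest*, *trr*, *Lpt* and *Ptip*, and *CoRest* alone had one in control, beside 43.9% and 28.5% of all genes. The overlap in *Lpt* was 9.70% of its span. *CoRest* and *Ptip* also had an H3K9me3 peak in Kdm3 GLKD alone, beside 7.54% of all genes. A list of 7 genes cannot be set apart from these backgrounds. Their ovary levels ran from 381.4 per kb (*Psc*) to 1355 (*CoRest*).

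The enzymes that add H3K9 methylation were read in the same way. All 4 genes of this list, the methyltransferases *egg*, *Su(var)3-9* and *G9a* and the *egg* cofactor *wde*, had an H3K9me2 peak in Kdm3 GLKD, against 1, *wde*, in control, beside 43.9% and 28.5% of all genes. The overlap was 554 bp, or 12.7% of the span, in *egg* and 95.7% in *wde*. A list of 4 genes cannot be set apart from that background. An H3K9me3 peak was called over *wde* in both genotypes and over *Su(var)3-9* in control alone. The shares of all genes with an H3K9me3 peak were 23% in control and 26.7% in Kdm3 GLKD. In ovary RNA *egg* was lowest at 99.5 per kb of exon, next to *Kdm3* at 94.9, and *G9a* highest at 3751 per kb. In embryo RNA *egg* stood at 676.2 per kb and *Su(var)3-9* was highest at 1119.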

How the data were processed

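The members and gene lists were chosen with earlier results of these data known. RNA-seq reads were aligned by the authors to annotated gene sequences with Bowtie, and small RNA reads were kept when they matched once after removal of abundant non-coding classes. Levels are the deposited base means, a normalized signal that the authors' DESeq2 run averaged over both genotypes. The fold changes, standard errors, Wald statistics and p-values in the same tables are the authors' comparisons and were not used. ChIP-seq reads were mapped by the authors on dm6 with BWA 0.7.17.4, freed of duplicates with Picard 2.18.2.1 and used to call peaks against input with MACS2 2.1.1.20160309.6, with broad calling for H3K9me2 and H3K9me3. How libraries were pooled for calling is not given in the sources used here. Per peak, the deposited fold ratio over input and the deposited -log10 q were read.

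Gene spans, exons and coding parts came from the Ensembl annotation of release 6 and sequences from RefSeq release 6. Of the identifiers, 17620 of 17875 (ovary) and 17360 of 17612 (embryo) were placed. Base means were divided by the exon length in kb, and a gene was counted with a peak when at least 1 bp of its span overlapped one (Python 3.11.15; interval steps were checked on simulated data). All 8 genes are named. From the lists, counts are given with the lowest and highest gene per kb and any gene with a peak in 1 genotype only. The genes most like *Kdm3* are the 3 protein-coding genes with the smallest largest difference in log2(base mean per 1000000 of the table sum + 0.1) over the 5 tables. Alternatives were a -log10 q of at least 5, a fold of at least 2, an overlap of at least 10% of the span, spans extended by 2 kb, whole-span lengths, another scaling and a base mean of at least 10. Depth per library is not used here, and no value has an interval. The *hfp* GLKD small RNA samples were not used here.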

Additional observations from a re-analysis of the deposited data

How the results depend on the processing

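Counts of the 8 genes that rest on weak peaks or on the gene borders moved by over 1.5 times. The Rhino counts of 0 cannot fall under a stricter threshold and say nothing of stability. When peaks needed 2-fold enrichment, the H3K9me2 count fell from 6 to 1 in Kdm3 GLKD (36052 bp to 2707 bp) and from 1 to 0 in control (1262 bp to 0 bp), and the H3K9me3 count of Kdm3 GLKD from 3 to 0 (6471 bp to 0 bp). With a -log10 q of at least 5, the H3K9me3 count of Kdm3 GLKD was also 0 (0 bp), while that of H3K9me2 was 4. With 2 kb added on each side, control counts rose to 5 for H3K9me2 (4807 bp), against 6 in Kdm3 GLKD, and 2 for H3K9me3 (2407 bp). With at least 10% of the span in peaks, the H3K9me2 count in control was 0. Over all genes, the H3K9me2 counts of control and Kdm3 GLKD were 4676 and 2061 at a fold of at least 2, the reverse of the reported 6836 and 10528, and 5791 and 6557 at a -log10 q of at least 5. Per kb of the whole span, *Kdm3* ranked 2 from the lowest in ovary small RNA instead of 1. Scaled to the median gene, the embryo to ovary ratio of *CG8176* was 1.01 instead of 0.840, and *Kdm3* kept the largest ratio, 4.26. Neither scaling would remove a difference in how reads of overlapping genes were counted. No paired analysis was possible because the deposited tables hold no values per library, and leaving out a library was likewise not run.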

Other observations

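The 3 protein-coding genes whose base means were most like those of *Kdm3* over the 5 tables, among 13893 compared, were *CG12769*, *LamC* and *CG34404*. The largest difference in any table, on the scale of log2(base mean per 1000000 of the table sum + 0.1), was 0.43, 0.46 and 0.69, in this order. *LamC*, which encodes a nuclear lamin, had base means of 281.6 in ovary RNA and 534.9 in embryo RNA, against 302.2 and 595.7 for *Kdm3*. These are likenesses of level over 5 pooled values and say nothing of shared control.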
